A study of Mus musculus with 13 samples.

Results

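Hemidesmosomes are the rivets that hold basal keratinocytes to the dermis. Inside the cell, the plakins encoded by Dst (dystonin, whose epithelial form is the bullous pemphigoid antigen BPAG1e) and Plec (plectin) tie the keratin filaments of Krt5 and Krt14 to the transmembrane proteins collagen XVII (Col17a1) and the integrin of the Itga6 and Itgb4 chains. Outside the cell, the integrin binds a laminin with the chains encoded by Lama3 and Lamb3, and collagen VII (Col7a1) forms the anchoring fibrils that reach from that laminin into the dermis. The Itga3 chain pairs with the Itgb1 chain in a second laminin-binding integrin of the same cells. Loss of these proteins is known to cause blistering of the skin.

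The complex was taken as 9 genes: Dst, Plec, Col17a1, Itga6, Itgb4, Itga3, Lama3, Lamb3 and Col7a1. All 9 were found among the 21950 genes of the bulk table and among the 28693 genes of each single-cell matrix, and all 9 passed the filter on low values. The study measured abdominal epidermis of C57BL/6 mice through pregnancy, when this skin expands. Bulk RNA came from sorted interfollicular basal cells (CD49f+, CD34-) in 3 groups of 3 libraries: wild type non-pregnant mice (WT NP), wild type mice at day 16 of gestation (WT dpc16), and pregnant Tbx3 conditional knockout mice at the same day (cKO dpc16; K14creERT2;Tbx3flox/flox). Tbx3 is a T-box transcription factor, and K14creERT2 is a tamoxifen-inducible recombinase under the keratin 14 promoter, which is active in basal keratinocytes. Which part of Tbx3 is removed is not stated in the labels, nor is any tamoxifen dosing of the wild type bulk groups. Single cells were taken from dissociated whole epidermis after tamoxifen in mice of the genotype Tbx3creERT2; R26H2B EGFP, with 1 library each for NP, dpc16, and days 6 and 40 after birth of the litter (dpp6, dpp40). Whether the 3 libraries of a bulk group are different animals is not stated, so each p-value reflects library-to-library spread, which may be technical.

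The labels were checked on a few genes. Tbx3 measured 17.0, 15.3 and 23.0 FPKM (fragments per kilobase of transcript, scaled to the total of the library) in WT dpc16, 8.96, 6.38 and 8.12 in WT NP, and 4.81, 1.65 and 4.89 in cKO. The sort antigen CD34 was encoded at 0 to 2.23 FPKM (Cd34), and CD49f, the product of Itga6 and so itself part of the complex, at 277 to 443 FPKM. The 5 basal keratinocyte markers summed to 27833 to 36920 FPKM in WT NP, 30507 to 33421 in WT dpc16 and 18905 to 27328 in cKO. The 7 spinous markers, genes of the layer above, summed to 8043 to 9592, 5276 to 14408 and 3493 to 5037 FPKM in the same order, so both sums were lower in every cKO library than in every WT dpc16 library. Fibroblast markers, at 0.234 to 9.86 FPKM summed, and endothelial markers, at 0.504 to 4.41, were near 0 in all 9 libraries. The third WT NP library stood apart from its group in several genes of the complex, and its 7 upper follicle markers summed to 3623 FPKM against 760 and 984 in the other two. The third WT dpc16 library had the spinous sum of 14408 FPKM, against 5276 and 5939 in the other two, and was the lowest of its group for 6 of the 9 genes. The first WT NP library had Merkel cell markers at 33.4 FPKM summed, against 0.709 and 0.0483 in the other two. Values of these libraries are given with each result they touch, and the part of the marker differences in the results was not tested.

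In the mm10 build, Dst lies at chr1:33908225-34308661, Lamb3 at chr1:193207699-193343878, Itga6 at chr2:71745616-71858416, Col7a1 at chr9:108953586-108984875, Itga3 at chr11:95044474-95076801, Itgb4 at chr11:115974709-116008412, Plec at chr15:76170974-76232574 and Col17a1 at chr19:47646344-47692094. The span of Lamb3 holds Hsd11b1 and G0s2 on the opposite strand, and that of Plec overlaps Parp10 on its own strand. No source used here gives the strand setting of the counting, so reads of the opposite-strand genes may not have been told apart from those of Lamb3. Where Plec and Parp10 overlap, strand cannot tell their reads apart. Dst has 20 annotated transcripts, the longest of 23279 bases, and the bulk table gives 1 value for the gene. The epithelial form and the longer forms of other tissues therefore cannot be told apart by these values.

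RefSeq's promoter table (GRCm38.p6, the assembly of mm10) held windows for 5 of the 9 genes. The 250 bases before each start are printed for Dst, with the pair of starts held there, and for Col7a1, all on the + strand. These genes had the largest differences between the knockout and its control. Capitals mark the GC box GGGCGG, searched on both strands.
Dst, upstream start, chr1:34011345-34011594: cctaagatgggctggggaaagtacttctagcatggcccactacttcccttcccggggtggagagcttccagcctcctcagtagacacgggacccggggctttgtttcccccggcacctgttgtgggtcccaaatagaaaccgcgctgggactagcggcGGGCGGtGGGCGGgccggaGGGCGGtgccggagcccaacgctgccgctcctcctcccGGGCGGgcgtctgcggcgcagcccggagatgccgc
Dst, downstream start, chr1:34160010-34160259: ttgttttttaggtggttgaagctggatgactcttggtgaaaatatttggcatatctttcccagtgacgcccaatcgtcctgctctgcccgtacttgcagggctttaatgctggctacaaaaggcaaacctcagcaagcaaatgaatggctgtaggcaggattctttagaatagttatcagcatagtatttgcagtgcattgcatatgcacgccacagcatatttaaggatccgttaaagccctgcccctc
Col7a1, chr9:108953336-108953585: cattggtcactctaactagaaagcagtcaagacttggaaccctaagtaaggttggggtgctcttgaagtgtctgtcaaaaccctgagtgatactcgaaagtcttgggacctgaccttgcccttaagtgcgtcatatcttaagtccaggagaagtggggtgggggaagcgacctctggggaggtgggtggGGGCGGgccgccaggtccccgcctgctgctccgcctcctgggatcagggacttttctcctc
The upstream Dst window held 4 matches, between 92 and 35 bases before the start, and the Col7a1 window held 1, at 61 bases. None of the annotated Dst transcripts begins beside that upstream start. The downstream Dst window, beside which the annotated transcripts Dst-213, Dst-215 and Dst-217 begin, held none. The GC box was found in 32.7% of the 32851 promoter windows of this length. The T-box half-site GGTGTGA, found in 3.33% of windows on either strand and the AP-1 letters TGANTCA, found in 6.75%, had no match in the 3 windows. That says only that these letters are not in these bases.

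Among the sorted basal cells, Col17a1 stood far above the other genes of the complex on the per-length FPKM scale. It measured 1594 to 2652 FPKM over the 9 libraries, and its lowest library lay above the highest of any other gene of the complex. Next by the mean over 9 libraries came Itga6 (408 FPKM), Dst (391), Col7a1 (286), Itgb4 (276) and Lamb3 (242), then Itga3 (130), Plec (87.9) and Lama3 (85.1). In WT NP the ranges of each neighbouring pair from Itga6 to Lamb3 overlapped, while Itga6 at the top of that run (277 to 428 FPKM) lay just above Lamb3 at its end (194 to 272). Lamb3 and Itga3 did not overlap in any of the 3 groups. In cKO, Dst moved to second place, and its range of 525 to 718 FPKM cleared that of Itga6 below it. The 9 genes together took 0.398% to 0.576% of the summed FPKM of a library.

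**Figure D1:**
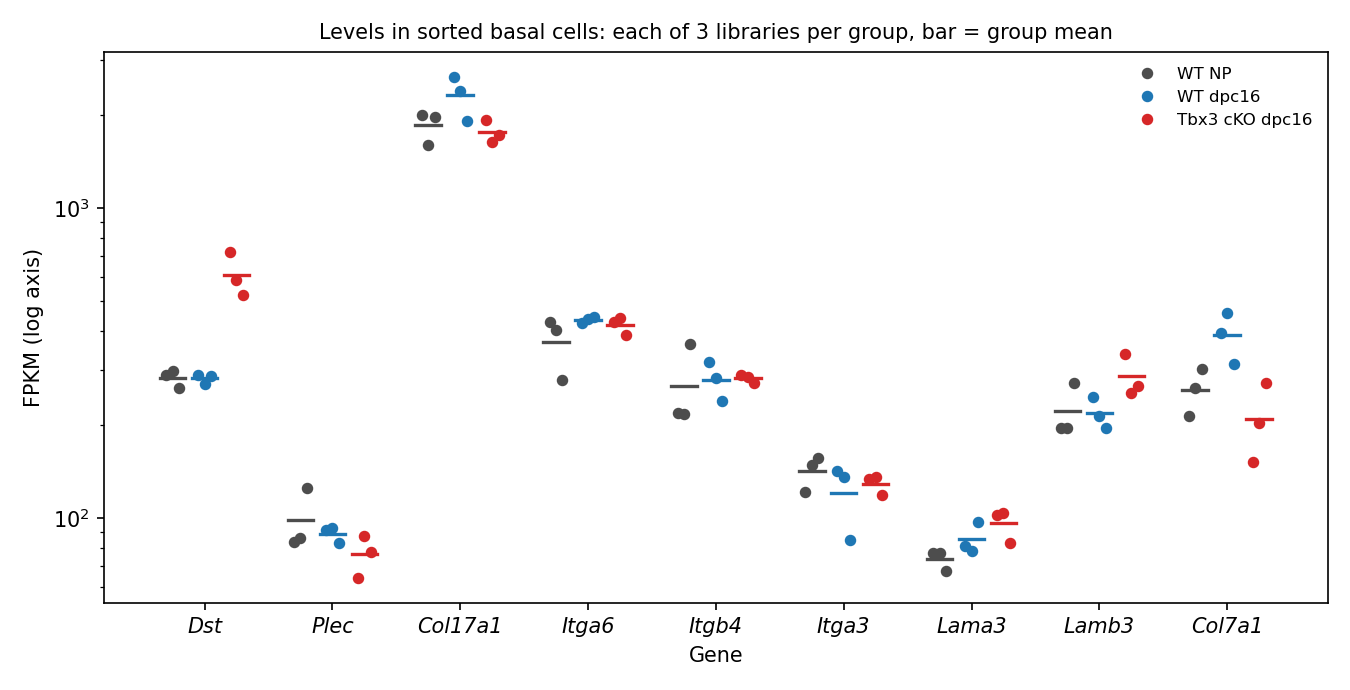
FPKM of the 9 genes on a log axis, with 1 point per library, 3 libraries per group (WT NP grey, WT dpc16 blue, Tbx3 cKO dpc16 red) and a bar at the group mean. The 3 cKO points of Dst lie between 525 and 718 FPKM, above all 6 wild type points, which lie between 262 and 297.

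Loss of Tbx3 in pregnant basal cells went with a rise of a single gene of the complex, the plakin Dst. Dst measured 718, 583 and 525 FPKM in the 3 cKO libraries. It measured 289, 271 and 288 FPKM in WT dpc16 and 288, 297 and 262 in WT NP. All 3 cKO libraries lay above all 6 wild type libraries, and the wild type groups lay on top of each other. The rise against WT dpc16 was 1.09 on the log2(FPKM + 1) scale (SE 0.137, 95% interval 0.79 to 1.40, n = 3 against 3, adjusted p = 0.00608, limma with Benjamini-Hochberg adjustment over all tested genes). That is 1 of 9 genes of the complex called, where 2.15% of the 11497 tested genes were called. Against WT NP the rise was 1.10 (adjusted p = 0.00441, limma), in a fit that shares the cKO libraries and where 5.66% of tested genes were called. Tested genes whose longest transcript exceeds 8 kb, as that of Dst does, had a median log2 difference between cKO and WT dpc16 of 0.08, with 7 of 615 called higher and 5 lower. Basal and spinous marker sums were lower in cKO, as given above.

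The other plakin of the plaque, Plec, did not pass in any comparison. It measured 64.2, 87.7 and 77.4 FPKM in cKO, 91.1, 92.9 and 83.1 in WT dpc16, and 83.5, 85.9 and 125 in WT NP. The cKO and WT dpc16 ranges overlapped, and the high value in WT NP was the third library. The difference between cKO and WT dpc16 was -0.23 (95% interval -0.64 to 0.18, adjusted p = 0.581, limma). The plakins and cytolinkers outside hemidesmosomes, of which 3 of 4 were tested, gave no call in either main comparison. Ppl (periplakin), of the cornified layers, differed by 0.09 and Evpl (envoplakin), its partner, by -0.24 between cKO and WT dpc16.

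Collagen VII, the anchoring fibril protein, had the largest negative difference of the complex in the knockout, short of the threshold. Col7a1 measured 152, 202 and 272 FPKM in cKO against 396, 458 and 314 in WT dpc16, and 213, 263 and 302 in WT NP. No cKO library reached the lowest WT dpc16 library, and the 3 WT NP libraries overlapped with cKO but not with WT dpc16. The difference between cKO and WT dpc16 was -0.92 (SE 0.228, 95% interval -1.43 to -0.41, adjusted p = 0.0707, limma), and it passed only when the third cKO library was left out (adjusted p = 0.02845, limma, against 0.02845 to 0.2346 over 16 alternatives). Between WT dpc16 and WT NP it was 0.58 (95% interval 0.07 to 1.09, adjusted p = 0.455, limma), and between cKO and WT NP -0.34 (adjusted p = 0.410, limma). The WT dpc16 libraries enter both of the first 2 differences, once on each side.

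The transmembrane collagen Col17a1 showed the same order of group means with smaller differences. It measured 2652, 2389 and 1912 FPKM in WT dpc16, 1996, 1594 and 1971 in WT NP, and 1916, 1636 and 1712 in cKO. The third WT dpc16 library fell within the range of both other groups. The difference was 0.32 for WT dpc16 against WT NP (95% interval -0.01 to 0.64, adjusted p = 0.569, limma) and -0.39 for cKO against WT dpc16 (95% interval -0.72 to -0.06, adjusted p = 0.204, limma).

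The laminin-binding integrin chains gave no call. Itga6, whose protein was the sort antigen, measured 425, 437 and 443 FPKM in WT dpc16, 428, 442 and 388 in cKO, and 428, 403 and 277 in WT NP. All were within a narrow band except the third WT NP library. Itgb4, the signalling chain of the pair, measured 318, 282 and 238 FPKM in WT dpc16, 289, 285 and 273 in cKO, and 217, 217 and 364 in WT NP. There the third WT NP library was the highest of all 9. The ratio of Itgb4 to Itga6 was 1.31 in that library and 0.507 to 0.747 in the other 8. Itga3 measured 141, 136 and 84.7 FPKM in WT dpc16, 134, 135 and 119 in cKO, and 121, 148 and 156 in WT NP, with overlap between all groups. For cKO against WT dpc16 the 95% intervals were -0.42 to 0.31 for Itga6, -0.42 to 0.48 for Itgb4 and -0.32 to 0.58 for Itga3.

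The laminin chains were slightly apart between some groups, with no call. Lama3 measured 102, 104 and 82.7 FPKM in cKO, 80.9, 78.0 and 96.7 in WT dpc16, and 77.1, 76.9 and 67.4 in WT NP. Its cKO libraries all lay above WT NP (0.37, adjusted p = 0.168, limma), and so did its WT dpc16 libraries (0.20, adjusted p = 0.753, limma). Lamb3 measured 339, 253 and 266 FPKM in cKO, 246, 213 and 195 in WT dpc16, and 195, 194 and 272 in WT NP. The cKO libraries all lay above WT dpc16, with a difference of 0.38 (95% interval -0.01 to 0.78, adjusted p = 0.296, limma).

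Read over the complex, pregnancy gave no call. In WT dpc16 against WT NP 0 of the 9 genes passed in limma, 1 of 9 (Col7a1) had an unadjusted p under 0.05, where 9.05% of all tested genes had one, and 0.13% of all tested genes were called. Groups did not overlap for 2 of 9 genes (Lama3 and Col7a1, both higher in WT dpc16), where 15.6% of all tested genes had groups that did not overlap. For cKO against WT dpc16 this held for 3 of 9 (Dst and Lamb3 higher, Col7a1 lower), beside 26.2% of all tested genes, and for cKO against WT NP for 2 of 9 (Dst and Lama3), beside 26.4%. The median log2 difference over the 9 genes was 0.10, 0.03 and 0.13 in the 3 comparisons in that order, and over all tested genes -0.03, 0.01 and -0.02. An unadjusted p under 0.05 (limma) was found for 3 of 9 genes in cKO against WT dpc16, beside 17.4% of all tested genes. For cKO against WT NP it was found for 2 of 9, beside 23.8%. These 3 comparisons share libraries pairwise.

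**Figure D2:**
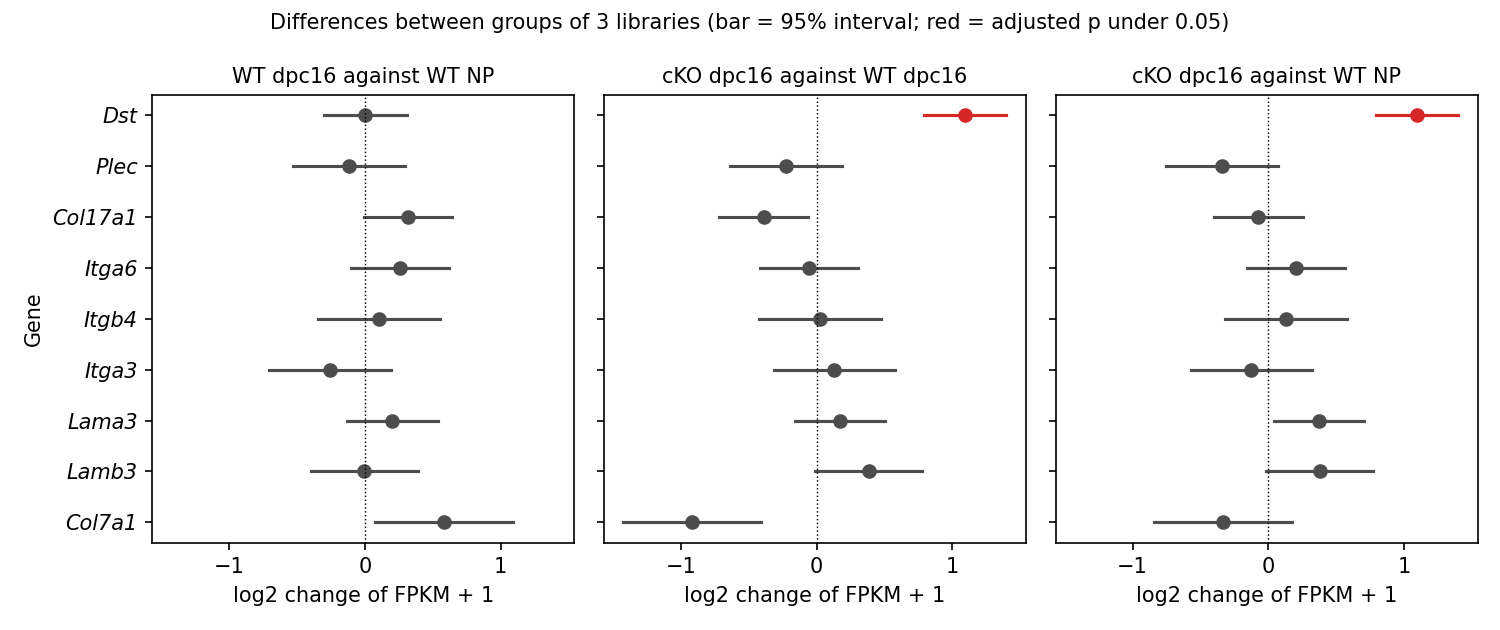
Difference between groups of 3 libraries on the log2(FPKM + 1) scale for each of the 9 genes, with the 95% interval of the limma fit as a bar, in 1 panel per comparison. Red marks an adjusted p under 0.05, which Dst alone reached, at 1.09 and 1.10 in the 2 comparisons with cKO.

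Genes around the complex were read from 6 lists. Differences of cKO from WT NP join pregnancy and genotype, which cannot be told apart in them. Of 4 direct partners (Cd151, Krt5, Krt14 and Itgb1), 1 of 4 lay above 0 for cKO against WT dpc16, with a median log2 difference of -0.47 and no call. Groups did not overlap for 4 of 4, beside 26.2% of all tested genes. An unadjusted p under 0.05 (limma) was found for 3 of 4, beside 17.4%. Krt14, the filament keratin that Dst and Plec anchor, averaged 5514 FPKM in cKO against 8342 in WT dpc16 and 9547 in WT NP. It differed by -0.64 from WT dpc16 (adjusted p = 0.143, limma) and fell by 0.81 against WT NP (adjusted p = 0.0490, limma). Krt5, its pairing partner, differed by -0.61 from WT dpc16 (adjusted p = 0.145, limma). K14creERT2 uses the promoter of Krt14, and the 2 keratins are also among the basal markers summed above.

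Of 14 tested genes of the remaining basement membrane, 1 fell and 0 rose in cKO against WT dpc16, where 2.15% of all tested genes were called. That gene was Sparc, a matrix glycoprotein that binds collagen, at 28.5 ± 9.91 FPKM in cKO and 89.5 ± 5.98 in WT dpc16 (mean ± SD, n = 3 each). Its log2 difference was -1.68 (adjusted p = 0.0106, limma), and against WT NP it was -1.53 (adjusted p = 0.0117, limma). Lama5, the laminin chain of the broader epithelial basement membrane, rose against WT NP by 1.10 (adjusted p = 0.0181, limma) and differed by 0.54 from WT dpc16 (adjusted p = 0.196, limma). Frem2, a matrix protein of the embryonic basement membrane, differed by -0.55 from WT dpc16 (adjusted p = 0.170, limma).

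The other adhesion lists gave no call between cKO and WT dpc16. Of 12 tested desmosomal genes, those of the junctions between neighbouring keratinocytes, the 2 with the smallest p were Dsg3 (0.75, adjusted p = 0.0743, limma), a cadherin of the lower layers, and Dsg1b (-1.16, adjusted p = 0.0805, limma), a cadherin whose family member is typical of the upper layers. Dsg1b fell by 1.35 against WT NP (adjusted p = 0.0342, limma). Of 18 tested genes of other integrins and focal adhesions, Vcl (vinculin, which links adhesions to actin) fell by 1.02 against WT NP (adjusted p = 0.0401, limma). Vcl averaged 33.8 FPKM in WT NP, 21.8 in WT dpc16 and 15.9 in cKO, so it was already lower in wild type pregnancy. Of 6 tested proteases that process or cleave anchoring proteins, Mmp14, a membrane-bound metalloproteinase, rose by 0.83 against WT NP (adjusted p = 0.0250, limma). These lists thus had 1 call each against WT NP, where 5.66% of all tested genes were called. Mmp14 averaged 127 ± 4.19 FPKM in WT dpc16 and 79.5 ± 8.15 in WT NP (mean ± SD, n = 3 each), with no overlap and adjusted p = 0.203 (limma). For cKO against WT dpc16, 12 of 57 tested genes of the 6 lists had an unadjusted p under 0.05 (21.1%, beside 17.4% of all tested genes). In WT dpc16 against WT NP none of the 6 lists had a call in limma. By unadjusted p under 0.05 they had 7 of 57 tested genes (12.3%, beside the 9.05% of all tested genes): 3 of 14 basement membrane genes, 1 of 18 integrin and focal adhesion genes, 1 of 12 desmosomal genes and 2 of 6 proteases.

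The genes with the profile most like Dst over the 9 libraries, out of 9233 with a mean of at least 5 FPKM, were Acpp (Pearson r = 0.993), Cyp2b10 (0.991), Hpgd (0.985), Tmem64 (0.984) and Fam83d (0.983). The 9 points fall into cKO and wild type libraries, so r mainly describes that step and carries no test. Hpgd, which encodes an enzyme that inactivates prostaglandins, averaged 38.4 FPKM in cKO and 5.19 in WT dpc16. Acpp, an acid phosphatase, averaged 304 FPKM in cKO and 136 in WT dpc16. Pairs of the 9 genes of the complex had r from -0.731 (Dst and Col7a1) to 0.729 (Dst and Lama3), so their mean profile does not describe each gene. The genes most like the mean of the 9 standardised profiles of the complex were Id3 (0.953), Zfp821, Plk3, Cdca4 and Morc2a (0.945). None of those 5 was called in any comparison, and neither was Fam83d of the genes most like Dst. The 2 sets of 5 had no gene in common.

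Single-cell counts showed which epidermal cells hold these transcripts. Counts are UMIs (unique molecular identifiers, 1 per captured transcript), and levels are CPM (UMIs of a gene per 1000000 UMIs, summed over the cells of a class). The 4 libraries kept 6491 to 12853 cells with a median of 4448 to 5638 UMIs per cell. Clustering without the 9 genes gave 25 clusters, named from marker genes. Of 36999 different barcodes, 684 occurred in more than 1 library. With 1 library per state there is no test between states, and all intervals cover counting error only.

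The complex was densest in basal keratinocyte-like cells (10814 cells, 29.3% of all) and in bulge and outer root sheath-like cells (5805 cells) of the hair follicle. The 9 genes summed to 2002 CPM in the first and 2003 in the second. They summed to 1279 in cycling-like, 1133 in spinous-like, 728 in upper follicle-like, 655 in sebaceous-like and 390 in granular-like cells. Basal keratinocyte-like cells gave 33.4% of all UMIs of the complex from 22.5% of all UMIs. In them Col17a1 led at 725 CPM, then Dst (443), Itga6 (298), Plec (153), Itgb4 (133), Lamb3 (121), Col7a1 (54.5), Lama3 (41.2) and Itga3 (33.4). These 3-prime counts are not per length and depend on capture near the transcript's end, so this order is not set beside the FPKM order.

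Immune cells of the same libraries were taken as a comparison, though they were not the lowest of the classes. T cell-like cells (312) summed to 1399 CPM for the complex and Langerhans and myeloid-like cells (581) to 1120, while melanocyte-like cells (32) had 281. Col17a1 stood at 493 and 396 CPM in the first 2, or 68.0% and 54.7% of the basal level, and Krt14 at 39.8% and 28.5%. Median depths were alike, at 5199 and 4961 UMIs per cell against 4412 in basal keratinocyte-like cells. A Col17a1 UMI was found in 83.0% and 57.5% of these immune cells and in 93.8% of basal keratinocyte-like cells. Doublets were not removed, and the part of free RNA, doublets and the immune cells' own transcripts in these values was not tested. With the libraries pooled, the spinous-like levels were below those of T cell-like cells for 9 of 9 genes (426 against 493 CPM for Col17a1, 269 against 301 for Dst). By library this held in each of the 4 for 5 of 9 genes, and Itga6 was higher in spinous-like cells in 3 of 4 libraries. Against Langerhans and myeloid-like cells, 3 of 9 spinous-like levels were higher when pooled: 269 against 263 CPM for Dst, 426 against 396 for Col17a1 and 145 against 121 for Itga6. No gene was higher in spinous-like cells than in either immune class in all 4 libraries. Basal keratinocyte-like cells lay above T cell-like cells in each of the 4 libraries for 7 of 9 genes, all but Plec (2 of 4 libraries) and Lamb3 (3 of 4). Plec was 153 CPM in basal keratinocyte-like and 147 in T cell-like cells. Lamb3 was 121 against 117, with a Lamb3 UMI in 42.3% of basal keratinocyte-like and 50.3% of T cell-like cells, while Langerhans and myeloid-like cells had 55.0 CPM. Levels of Plec and Lamb3 in basal keratinocyte-like cells were thus not separated from the T cell-like level, which is not the lowest level of the classes. Lamb3 was 43.1 CPM in spinous-like and 18.8 in granular-like cells, and Plec was 131 and 67.4. Bulge and outer root sheath-like cells had 153 CPM of each gene.

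**Figure D3:**
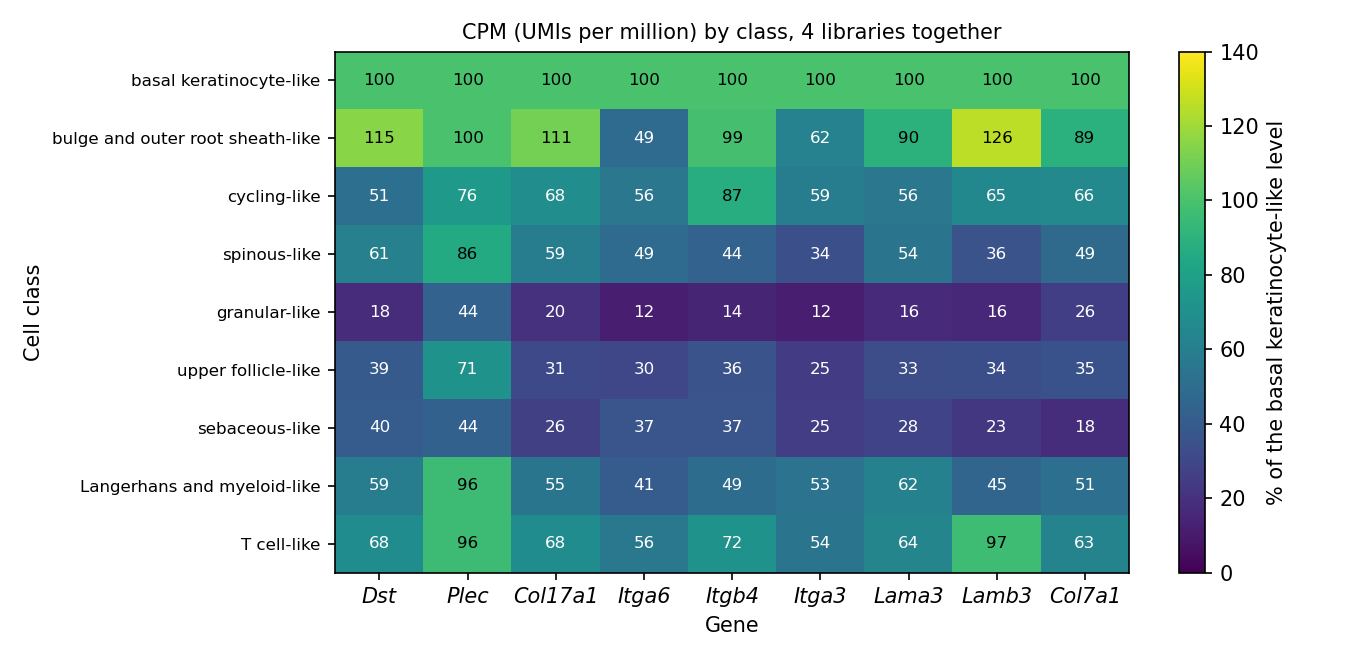
Level of each of the 9 genes (columns) in 9 cell classes (rows) as a percentage of its level in basal keratinocyte-like cells, from CPM over the 4 libraries together. Bulge and outer root sheath-like cells stand at 115% for Dst, 111% for Col17a1 and 126% for Lamb3 but at 49% for Itga6, and granular-like cells at 12% to 44%.

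Bulge and outer root sheath-like cells held the complex in other proportions than basal keratinocyte-like cells. Itga6 measured 146 CPM there and 298 in basal keratinocyte-like cells, and the ratio of the classes was 0.44 to 0.66 in the 4 libraries. Itga3 was lower too, at 0.55 to 0.74 of the basal level. Dst (1.03 to 1.31 times the basal level), Col17a1 (1.05 to 1.16) and Lamb3 (1.05 to 1.28) were higher in each of the 4 libraries. Itgb4, whose chain pairs with that of Itga6 in the hemidesmosome, was level at 0.95 to 1.06. With the libraries pooled, the Itga6 level in bulge and outer root sheath-like cells was under the 167 CPM of T cell-like cells, and by library it was above theirs in 2 of 4 (128 against 98.7 in dpp6, 133 against 124 in dpp40). Clusters of the class differed. In cluster 5, led by Cd34 and Postn, Itga6 stood at 114 CPM beside 1045 for Col17a1, 578 for Dst and 180 for Lamb3. Cluster 11, led by Aspn and Pthlh, had 116, 535, 445 and 148 CPM for the same genes. Its Col17a1 level lay below the 725 of basal keratinocyte-like cells, and its Dst level was near their 443. Cluster 11 was named on close scores, 0.811 for bulge and outer root sheath markers and 0.738 for upper follicle markers. Cluster 15 had 209, 814, 524 and 130 CPM. The class also holds cluster 22, of 324 cells with 258 from dpp6, whose levels are not given here.

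Set within each library, the ratio of Itga6 to Itgb4 UMIs separated both classes. It was 1.92 (95% interval 1.76 to 2.08), 2.29, 2.17 and 2.35 in basal keratinocyte-like cells of NP, dpc16, dpp6 and dpp40. In bulge and outer root sheath-like cells it was 0.908 (0.814 to 1.01), 1.44, 1.01 and 1.12. The 2 sets of 4 libraries did not overlap, and within each library the difference exceeded the counting intervals (exact conditional binomial). Immune cells, the comparison used above, lay at 1.74 (T cell-like) and 1.84 (Langerhans and myeloid-like) over all libraries. By library they ran from 1.23 to 2.08 and from 1.34 to 2.37, so their lowest values fell within the bulge range. Cycling-like cells (1.21 to 1.74), unnamed cells (1.30 to 1.95) and upper follicle-like cells (1.37 to 2.18) also reached into it, so a low ratio was not particular to the bulge class.

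**Figure D4:**
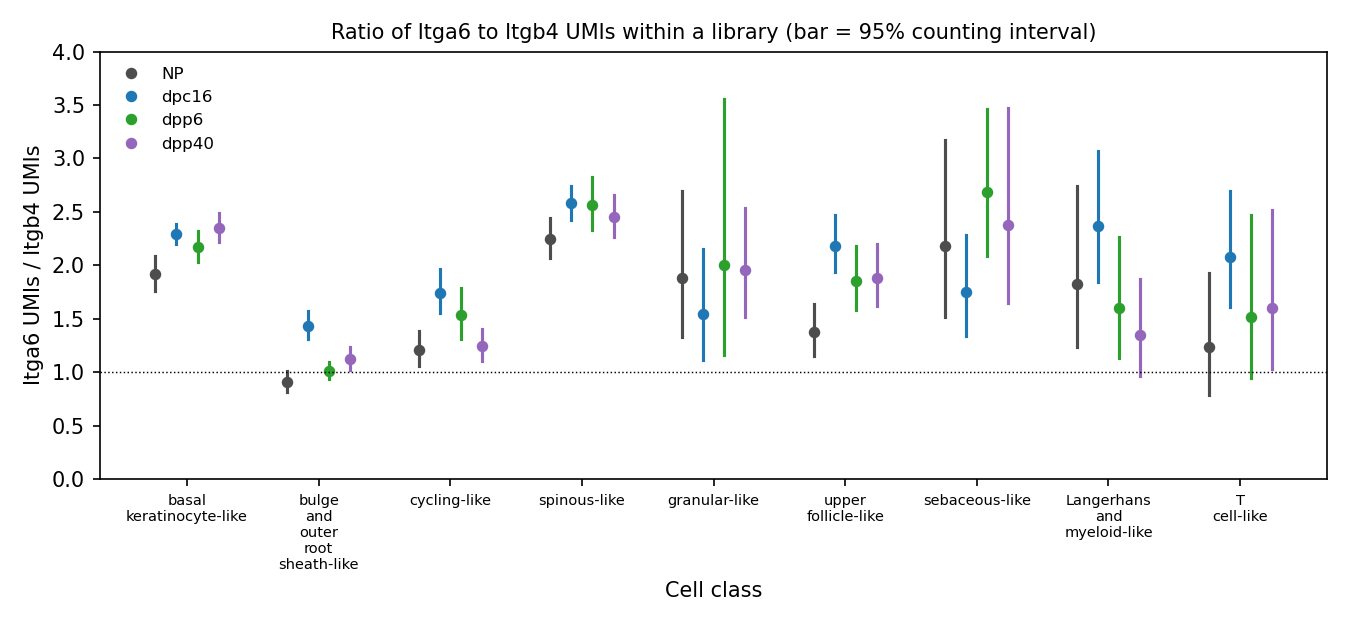
Ratio of Itga6 to Itgb4 UMIs in 9 cell classes, 1 point per library (NP grey, dpc16 blue, dpp6 green, dpp40 purple) with a 95% counting interval. Bulge and outer root sheath-like cells lie at 0.908 to 1.44 and basal keratinocyte-like cells at 1.92 to 2.35.

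In basal keratinocyte-like cells the complex summed to 2027 CPM in NP, 2045 in dpc16, 2076 in dpp6 and 1863 in dpp40. No gene of the complex differed by more than 1.5-fold from NP in any state (0 of 9 in each). Of 4510 genes with at least 20 CPM, 5.83%, 5.79% and 3.35% did in dpc16, dpp6 and dpp40. Few genes of any kind passed that fold, so 0 of 9 does not set the complex apart. Ratios to NP ran from 0.771 (Lamb3) to 1.21 (Itga6) in dpc16, from 0.904 (Lama3) to 1.10 (Itga6) in dpp6, and from 0.809 (Dst) to 1.09 (Itga6) in dpp40.

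The class was made of different clusters in different states, which bears on these values. Cluster 6, led by Tgm3, Thy1 and Pyy, held 2252 of the 5243 basal keratinocyte-like cells of dpc16 and 43 of the 1335 of NP. Cluster 7 held 107 and 613 of them. Cluster 4 was led by the stress-related Fosl1 and Krt16, and cluster 19 had cell-cycle genes among its leading genes. Within clusters, Lamb3 was lower in dpc16 than in NP in 5 of 5 (for example 101 against 133 CPM in cluster 3), and Itga6 was higher in 5 of 5 (308 against 294 in cluster 3, 366 against 295 in cluster 4). Counting intervals of both states overlapped in 4 of 5 clusters for Itga6 and in 3 of 5 for Lamb3. Col7a1 was higher in dpc16 in 3 of 5 clusters and lower in 2 of 5 (56.3 against 65.9 CPM in cluster 7, 46.6 against 47.2 in cluster 4), with overlapping intervals in 5 of 5. Itga6 was also higher in dpc16 among immune cells, at 232 against 158 CPM in T cell-like cells and 182 against 116 in Langerhans and myeloid-like cells. Lamb3 was 119 against 115 in the T cell-like and 58.6 against 69.4 in the Langerhans and myeloid-like cells.

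The plakin Dst measured 492 CPM (95% interval 475 to 510) in NP, 446 (437 to 454) in dpc16, 466 (453 to 480) in dpp6 and 398 (388 to 409) in dpp40, its lowest state. Col7a1 was highest in dpc16, at 61.6 (58.5 to 64.9) against 53.3 (47.8 to 59.4) in NP, 53.4 in dpp6 and 43.4 (39.9 to 47.1) in dpp40. Lamb3 was lowest in dpc16, at 106 (102 to 110), against 137 (128 to 147) in NP, 135 in dpp6 and 129 in dpp40, and below the 119 of T cell-like cells of dpc16. The spread between animals of a state is not known from 1 library, and these differences cannot be set against it.

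**Figure D5:**
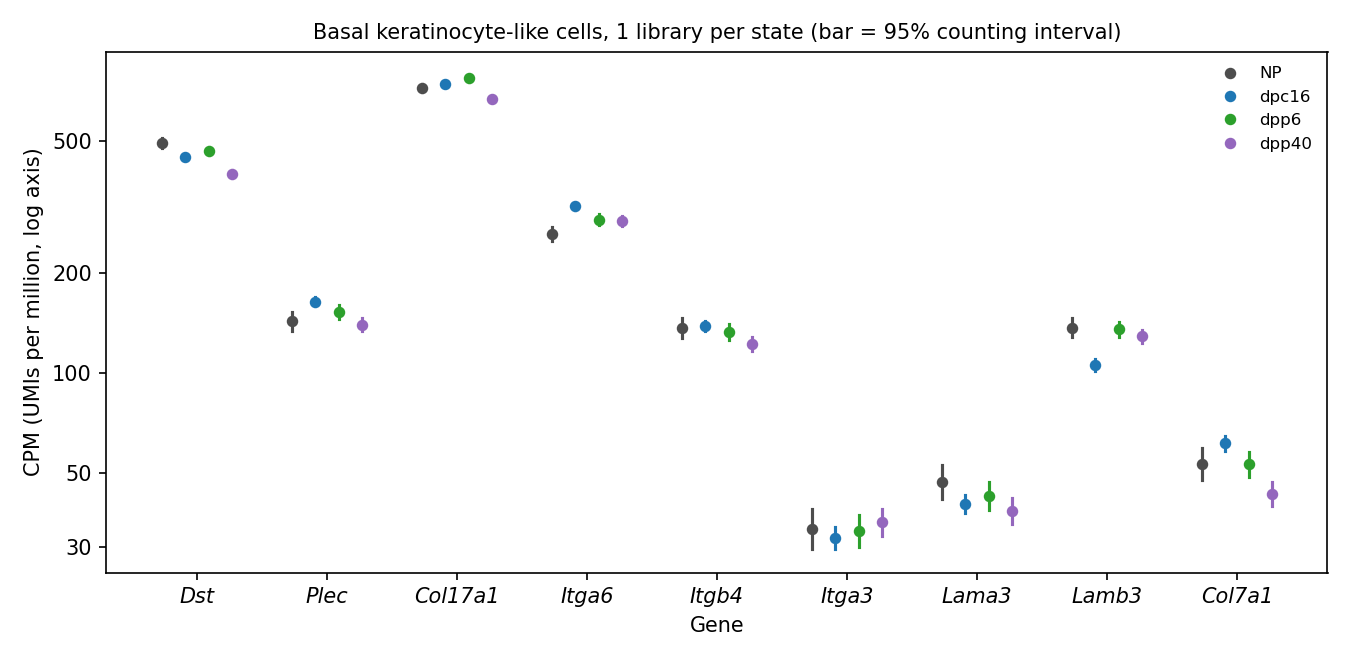
CPM of the 9 genes in basal keratinocyte-like cells on a log axis, 1 library per state, with exact 95% Poisson intervals for counting error. Lamb3 is lowest in dpc16 (106) and Itga6 lowest in NP (262).

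The bulk and single-cell measurements of pregnancy can be read side by side for the same contrast, though the cells were gathered by a sort in one and by clustering in the other, in mice of different genotypes. Both are given here as log2, of the CPM ratio of dpc16 over NP in basal keratinocyte-like cells and of FPKM + 1 in bulk. Col7a1 was 0.21 in single cells, and its bulk difference was 0.58. Itga6 was 0.27 in single cells, with a bulk difference of 0.26. Col17a1 was 0.04 and 0.32, and Dst was -0.14 and 0.00 on the same 2 measures. Lamb3 was -0.37 in single cells, while in bulk it differed by -0.01 with an interval of -0.40 to 0.39. Lama3 was -0.22 in single cells with a bulk difference of 0.20, and Plec was 0.20 with one of -0.12, so both went opposite ways. Itgb4 was 0.02 with a bulk difference of 0.10, and Itga3 was -0.09 with one of -0.26. None of the 9 bulk differences passed the test.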

How the data were processed

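Bulk RNA was measured in 9 libraries and single cells in 4. The bulk values are FPKM, deposited by the authors in 1 table. Named in the submitters' processing notes are mm10, TopHat2, cutadapt 1.14, Cuffdiff and Cufflinks 2.2.1, and the stranded kit is per the labels' protocols. The sources used here do not give annotation, scaling, strand setting or depth. Columns headed WT were taken as WT dpc16, since the other headings name the remaining groups, and libraries are numbered by column order. Those 11497 of 21950 genes that averaged at least 1 FPKM were tested as log2(FPKM + 1), which understates changes of low genes, with limma 3.58.1 in R 4.3.3: 3 group means over 9 libraries, empirical Bayes with trend, two-sided, Benjamini-Hochberg threshold 0.05. The script was tested on simulated data.

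The deposited single-cell files hold UMI counts per gene and barcode, made with Cell Ranger 2.2.0 per the submitters' processing notes. Cells were kept where they had no fewer than 200 genes and a mitochondrial share of UMIs up to 10%. They were clustered (scanpy 1.11.5, Leiden resolution 1, 2000 variable genes without the 9 of the complex, 30 components, 15 neighbours, no integration, no doublet removal). A cluster was named from its marker genes, and those that fitted no list well stayed unnamed, so class shares may differ from the study's own. Levels are CPM (UMIs per 1000000) with exact 95% Poisson intervals.

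Named genes are all 9 of the complex, the genes past the threshold of each list (at most 6) or else its 2 of smallest p where space allowed, the 5 genes most like Dst and like the mean profile, and Tbx3 and the sort antigens. Members, lists and tests were chosen with earlier results of these data known. One list gene is not reported here. Alternatives are given in the closing section.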

Additional observations from a re-analysis of the deposited data

How the results depend on the processing

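The rise of Dst in cKO against WT dpc16 kept its direction and stayed past the threshold in 16 of 16 alternatives (log2 0.967 to 1.19, adjusted p 0.003126 to 0.039, limma), and likewise against WT NP (0.970 to 1.20). No paired analysis was possible because the columns carry no replicate numbers that match those of the sample titles. Genes called numbered 15 for WT dpc16 against WT NP (9 without a filter on low FPKM, 5 to 15 leaving out 1 library), 247 for cKO against WT dpc16 (87 without a filter, 160 without a trend, 118 with only the 2 groups in the fit, 41 to 406 leaving out 1 library) and 651 for cKO against WT NP (314, 427, 167, and 118 to 736). Genes of the complex called in cKO against WT dpc16 numbered 1 to 2 leaving out 1 library, the second being Col7a1 without the third cKO library. Directions that turned were all of uncalled differences near 0. For WT dpc16 against WT NP, Lamb3 was 0.0044 with quantile normalization and 0.0023 with median scaling, and leaving out 1 library it ran from -0.0957 to 0.1546, Dst from -0.0506 to 0.0412, Itgb4 from -0.0203 to 0.3512 and Plec from -0.2182 to 0.0701. For cKO against WT dpc16, leaving out 1 library moved Itgb4 from -0.0844 to 0.1239 and Itga3 from -0.1033 to 0.2635. The summed level in basal keratinocyte-like cells averaged 1.76 times that in spinous-like cells over the 4 libraries, 1.80 and 1.82 at Leiden resolutions 0.5 and 2, and 1.91 with at most 5% mitochondrial UMIs. Of the 36 levels in basal keratinocyte-like cells (9 genes in 4 libraries), the only single-gene levels recomputed under each alternative, none moved by more than 1.13 times, the value for Itga3 in dpp6 thinned to 3000 UMIs. Such moves can still exceed the counting intervals. At Leiden resolution 2, 26 of the 36 stayed within the interval of the main setting, and 33 to 36 did in the other alternatives. Dst in NP was 520 CPM at resolution 2, against 492 (475 to 510). Depth behind the FPKM is unknown.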

Other observations

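Levels of the complex in the 4 unnamed single-cell clusters were below those of T cell-like cells (493 CPM for Col17a1, 301 for Dst and 167 for Itga6) for these 3 genes. Cluster 1, led by Ccl2 and Sostdc1, had 3328 cells and 395 CPM for Col17a1, 272 for Dst and 117 for Itga6. Cluster 14, also led by Sostdc1, had 1580 cells and 398, 276 and 154 CPM for the same genes. Cluster 16, with Fam13a and Cldn10 in front, had 875 cells, of which 14 came from dpc16, and 295, 204 and 90.7 CPM. Cluster 25, 16 cells led by haemoglobin genes, had 30.1 for Col17a1, and Itga6 and Itgb4 had no UMI there. Upper follicle-like cluster 21, of which 257 of 373 cells came from dpc16, stood nearest to basal keratinocyte-like cells outside the bulge, with 585 for Col17a1 and 358 for Dst.

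The series' design text states 6485, 12846, 9029 and 8552 cells for NP, dpc16, dpp6 and dpp40. The matrices held 6635, 12984, 9351 and 8716 barcodes, and the filter used here kept 6491, 12853, 9031 and 8552.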
